A study of Mus musculus with 22 samples.

Results

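Transcription by RNA polymerase II (PolII) does not stop at the annotated 3′ end of a gene. The polymerase runs past the poly(A) signal, the nascent RNA is cleaved, and the polymerase is released over the next kilobases. PolII signal past a gene end can thus come from polymerases that have traversed the gene. This termination zone was described here after mitosis, when transcription restarts from chromosomes that carry little PolII. The zone was taken as the window from 0 to 5 kb downstream of the 3′ end of each protein-coding gene longer than 5 kb on the 19 autosomes (GENCODE vM1, mm9). Windows in which another annotated gene overlapped the window or its 2 kb flanks were left out. Of 15863 such genes, 8015 (50.5%) had an isolated window, and these windows span 40.1 Mb.

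The data are PolII ChIP-seq from G1E-ER4, an erythroid precursor line of the mouse that descends from GATA1-null cells and was not induced here. In the subline used, both alleles of the architectural protein CTCF carry an auxin-inducible degron with mCherry, and the cells express the TIR ubiquitin ligase component that the degron needs, in the control and the treated samples alike. Nocodazole at 200 ng/ml held the cells in prometaphase. They were left without auxin (control) or given auxin (1 mM, in the last 4 h of the arrest and after release) to remove CTCF, and harvested at 0 min (prometaphase) or at 60, 120 or 240 min after release (early-G1, mid-G1 and late-G1), then sorted on DNA content and mCherry. Mid-G1 had 3 control and 3 auxin libraries and each other stage 2 and 2, which makes 18 PolII libraries. A single engineered line was used, so the samples vary by culture and not by genotype, and auxin itself and loss of CTCF cannot be told apart.

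The windows start at the annotated gene ends, and the bases there were read for the poly(A) signal. A poly(A) signal, AATAAA or its common variant ATTAAA, usually lies within the last bases before the cleavage site. In the gene direction, at least 1 of the 2 hexamers was found in the last 30 bases of 5120 of the 8015 genes (63.9%), AATAAA in 51.4% and ATTAAA alone in 12.5%. The last 30 bases are shown, 5′ to 3′ and read from mm9, for genes whose windows carry the results below, with the hexamer in capitals where it is present.

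Srsf3: taaaagattattATTAAAagacactgactt
Rps24: aacactgagtgttttgaggttttatttttt
Rps19: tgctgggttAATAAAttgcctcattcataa
Pabpc4: taAATAAAtttactttcccttttggttttt
Tab1: tctctagaaatagaaccatgttcttcatgc
Osbpl2: gcctctgtcATTAAAacactttgaaaatcc
Rptor: gcctgggtggaagtgaagacatgctggttg
Rpa1: tgccttccATTAAAcccttgctaatctcta

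The runs end at the last annotated base of each gene, that is chr17:29180282-29180311 (plus strand) for Srsf3, chr14:25315339-25315368 (plus) for Rps24, chr7:25674796-25674825 (plus) for Rps19, chr4:122976139-122976168 (plus) for Pabpc4, chr15:79992102-79992131 (plus) for Tab1, chr2:179897356-179897385 (plus) for Osbpl2, chr11:119760861-119760890 (plus) for Rptor and chr11:75111668-75111697 (minus) for Rpa1. The hexamer began 18 bases before the end of Srsf3, counted with the last base as 1, and 21 bases before that of Rps19. Rps24, Tab1 and Rptor held neither hexamer in these 30 bases. Beyond the end, the letters TGTGT, part of the GT-rich element that usually follows a cleavage site, occurred in the first 60 bases of 23.3% of all windows. The first 30 bases past the end of Pabpc4 were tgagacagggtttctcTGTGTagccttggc, with that element in capitals.

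A base was scored as covered when it lay under a peak that MACS2 had called in that library. Peak lists held 2414 to 3918 peaks in prometaphase and 50594 to 117125 after mitosis, and the relative depth recovered from them ranged from 4.51 to 13.3 reads per kb. The shallowest list was mid-G1 control replicate 1. Of 8 erythroid precursor genes, 7 had a promoter peak in all 14 post-mitotic libraries and Lmo2 in 13, whereas none of 8 genes of other lineages had a promoter peak in any library.

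Termination windows were nearly free of PolII peaks in prometaphase and were occupied by early-G1, the first stage after release. Covered bases made up 0.204% and 0.137% of all window bases in the prometaphase control libraries, and 0.178% and 0.116% with auxin. In early-G1 they made up 12.4% and 13.5% in control and 10.5% and 10.4% with auxin. The mid-G1 controls had 4.89%, 11.7% and 10.7%, and the mid-G1 auxin libraries 10.8%, 12.0% and 8.48%. The late-G1 controls had 9.70% and 13.3%, and the late-G1 auxin libraries 8.10% and 7.11%. No prometaphase library overlapped any post-mitotic library. The difference was 6.0 on the log2 scale (two-sided exact permutation test, p = 0.000772, the smallest that 1296 arrangements allow). Peak lists as a whole shrank in prometaphase too, and the windows held 4.46% to 5.33% of all listed bases there and 6.77% to 8.61% after mitosis.

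**Figure D1:**
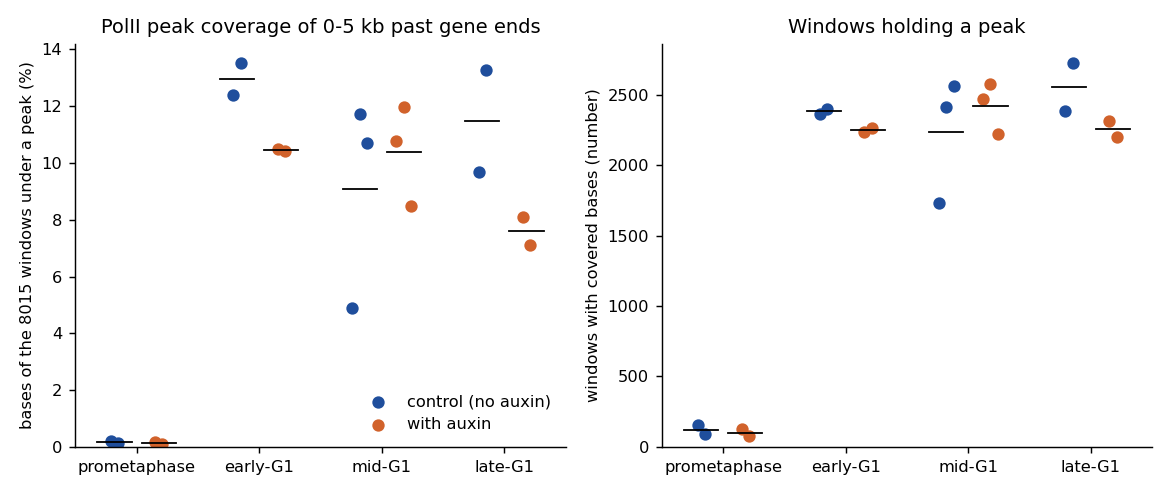
Share of the 8015 windows' bases under a PolII peak (left, %) and number of windows with covered bases (right), with 1 point per library, control in blue and auxin in orange, and group means as black bars. The prometaphase libraries stay at or below 0.204% and 156 windows, while the post-mitotic libraries lie between 4.89% and 13.5% and between 1733 and 2728 windows.

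Of the 8015 windows, 4909 (61.2%) held no peak in any post-mitotic library, 1425 (17.8%) held a peak in all 14, and 577 were covered over at least 50% of their bases on average. Genes with a peak within 500 bp of their annotated start in all 14 post-mitotic libraries, 2786 in number and called occupied genes below, contributed 84.0% to 86.1% of the covered bases after mitosis. Even so, 364 (13.1%) of these occupied genes had no peak in their window in any of the 14 libraries. The reverse also occurred. Among the 1425 windows with a peak in all 14 libraries, 125 belonged to genes with no promoter peak in any of them. A gene transcribed toward the window from the other side ended within 10 kb of the gene end for 32 of these 125 windows (25.6%), against 161 of the 1425 (11.3%) and 575 of all 8015 (7.17%). ChIP-seq carries no strand, so polymerases of such a neighbour and of the window's own gene cannot be told apart.

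PolII peaks covered more of the windows than of the last 5 kb of the same genes. The ratio of covered bases, window over last 5 kb, lay between 1.5 and 2.45 in the 14 post-mitotic libraries with a median of 1.61, and between 2.63 and 3.85 in the 4 prometaphase libraries. Around the ends of the occupied genes, coverage rose over the last kilobases of the gene, rose steeply past the end, and was highest 750 to 1500 bp downstream in each of the 14 post-mitotic libraries. In early-G1 control replicate 1, for example, 24.2% of the bases were covered in the last 250 bp of the genes, 30.1% in the first 250 bp past the end, 43.5% at 1000 to 1250 bp past the end, 16.1% at 4750 to 5000 bp and 11.7% at 6750 to 7000 bp. In prometaphase the maximum lay 1250 to 2000 bp past the end at 0.766% to 1.14%. The strongest peak summit of a window lay at a median distance of 1317 to 1856 bp from the gene end after mitosis. Its median fold enrichment over background, as given by the peak caller, was 6.66 to 8.12, well below the 14.8 to 31.4 of the promoter peaks of the same genes.

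**Figure D2:**
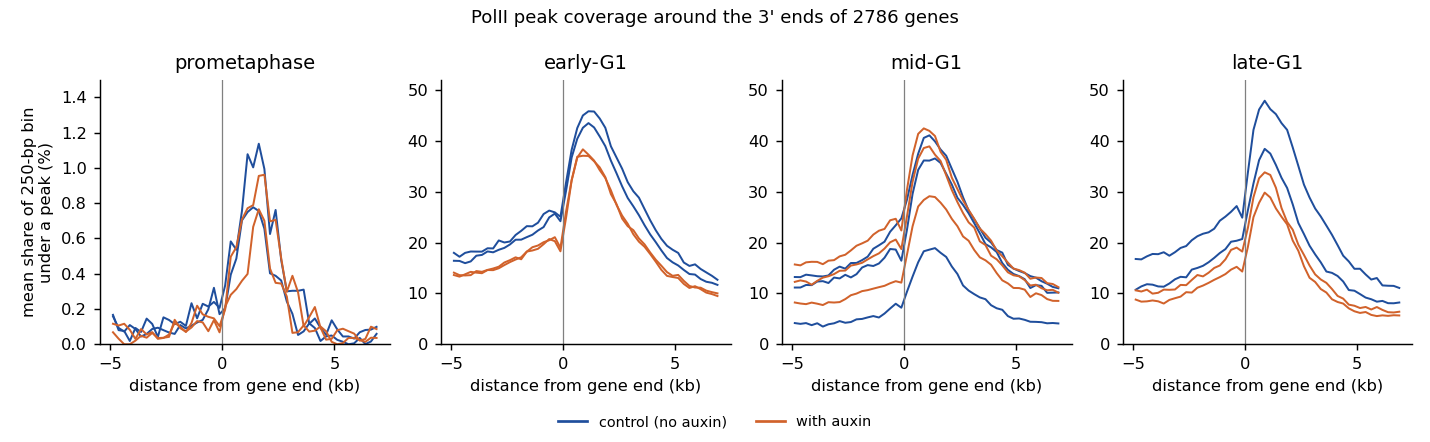
Mean share of each 250-bp bin under a PolII peak (%) against the distance from the 3′ end (kb, negative inside the gene) for the 2786 occupied genes, with 1 line per library, control in blue and auxin in orange. The prometaphase panel has its own, much smaller vertical scale. Coverage rises past the gene end in each library and reaches 43.5% and 45.8% in the early-G1 controls.

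Ranked by mean coverage after mitosis, the window of Srsf3, a splicing factor gene (chr17:29180312-29185311), was covered over 100% of its bases in each of the 14 post-mitotic libraries, and that of Rps24, a small-subunit ribosomal protein gene (chr14:25315369-25320368), over 98.2% to 100%. The other 8 in this order were Fam65a, the splicing factor gene Tra2b, the kinase gene Csnk1a1, the RNA-binding protein gene Hnrnpf, the mitochondrial import receptor gene Tomm20, Adamtsl4, the exonuclease gene Isg20l2 and 2500003M10Rik, with means of 98.4% to 99.8%. Past the window, in the next 2 kb, coverage was still 92.4% for Srsf3 and 63.5% for Rps24. The gene end of Srsf3 itself lay under a peak in all 14 libraries, as it did for 125 of the 1425 windows with a peak in every post-mitotic library. For Hnrnpf, where coverage of the next 2 kb was 97.9% and the promoter peak was present in 1 of 14 libraries, Fxyd4 ends 8.11 kb downstream in the opposite direction. Adamtsl4 likewise had a promoter peak in 3 of 14 libraries, and Mcl1 ends 13.02 kb downstream in the opposite direction.

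A small set of windows kept PolII peaks in prometaphase. Some peak was present in 76 to 156 windows per prometaphase library and in 226 windows in at least 1 of the 4. In all 4 libraries it was present in 49 windows, each of which also held a peak in all 14 post-mitotic libraries. Of these 49 genes, 15 had a promoter peak in all 4 prometaphase libraries and 19 in none, so the window held a peak where the annotated start did not. The median length of the 49 genes was 13.3 kb. It was 24.5 kb for the 1425 genes with a window peak in all 14 post-mitotic libraries and 31.0 kb for all 8015. The 8 named below are those with the highest mean fold enrichment in prometaphase.

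At Rps19, a ribosomal protein gene, 49.2% and 47.1% of the window was covered in the prometaphase controls and 47.5% and 47.0% with auxin, with the strongest summit 1575 to 1915 bp past the gene end in the 4 libraries and fold enrichments of 24.1, 17.0, 23.6 and 18.01. These values varied little among the 4 libraries and lay below the 57.3% to 89.6% of the post-mitotic libraries. At H3f3b, which encodes the replication-independent histone H3.3, coverage was 54.0%, 50.7%, 54.9% and 52.4% in prometaphase, within the post-mitotic range of 50.6% to 70.7%, with summits 1493 to 1694 bp past the end. The mean fold enrichment of the strongest summit was lower in prometaphase than after mitosis, with 20.5 against 44.1 at H3f3b and 20.7 against 64.6 at Rps19. The annotated start of H3f3b had no promoter peak in any post-mitotic library. At Ncl, the gene of the nucleolar protein nucleolin, the 4 values were 37.2%, 47.2%, 45.7% and 37.7%. At Gata2, a transcription factor gene of early erythroid cells, they were 26.5%, 19.8%, 26.8% and 22.7%, against 45.0% to 68.7% after mitosis, and the summits lay only 452 to 580 bp past the end. Scd2, Prpf38b, Bzrap1 and Atp5a1 complete the 8 windows with the highest prometaphase fold enrichments, with means of 10.6 to 11.9.

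Which termination windows were covered first differed by gene length. Among the occupied genes, windows of short and middle-sized genes were covered at the first time point after release. Those of genes over 150 kb were nearly empty there and held peaks more often later. In early-G1, 81.0% and 82.1% of the 610 windows of genes of 5 to 15 kb held a peak in the controls, and for the 548 genes of 50 to 100 kb the share was 73.5% in both controls. It fell to 52.6% and 42.8% for the 194 genes of 100 to 150 kb, to 12.0% and 10.7% for the 75 genes of 150 to 200 kb, and to 4.23% and 7.04% for the 71 genes of 200 to 300 kb. In the late-G1 controls, 41.3% and 53.3% of the windows of genes of 150 to 200 kb held a peak, and 50.7% and 54.9% of those of genes of 200 to 300 kb. The 45 genes over 300 kb stayed low, with 6.67% in both early-G1 controls and 20.0% and 22.2% in the late-G1 controls. The shares with auxin in early-G1 were 36.6% and 32.0% for genes of 100 to 150 kb and 8.00% in both libraries for genes of 150 to 200 kb. In late-G1 with auxin they were 34.7% and 32.0% at 150 to 200 kb, 33.8% and 39.4% at 200 to 300 kb, and 11.1% and 8.89% over 300 kb. By mid-G1 the share at 150 to 200 kb already averaged 39.1% in control and 40.4% with auxin.

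**Figure D3:**
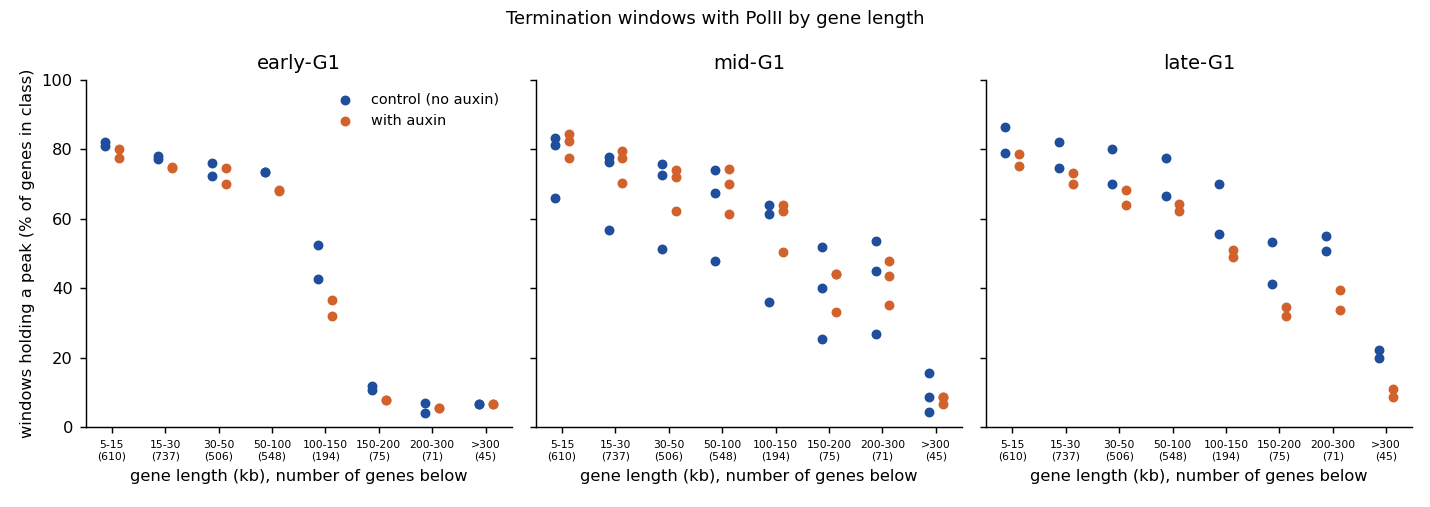
Share of windows holding a PolII peak (%) by length class of the gene (kb, number of occupied genes in brackets), with 1 point per library, control in blue and auxin in orange, for early-G1, mid-G1 and late-G1. In early-G1 the share drops from 73.5% at 50 to 100 kb to 12.0% and 10.7% at 150 to 200 kb in the controls, and in late-G1 it is 41.3% and 53.3% at 150 to 200 kb.

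The same order was seen in covered bases. Windows of the 385 occupied genes over 100 kb were covered over 10.5% and 9.79% of their bases in the early-G1 controls and 5.37% and 4.25% with auxin, while those of the 1347 genes of 5 to 30 kb were covered over 34.5%, 38.2%, 30.7% and 31.0%. In late-G1 the long genes reached 12.9% and 19.3% in control and 9.22% and 7.61% with auxin, and the short genes 27.1%, 36.0%, 23.3% and 21.0%. The log2 ratio of long to short genes was -1.71 and -1.97 in the early-G1 controls, -2.52 and -2.87 with auxin, -1.74 to -1.07 in mid-G1, and -1.46 to -0.90 in late-G1. By group mean it was -1.84, -1.32 and -0.98 in early-, mid- and late-G1 control, and -2.69, -1.20 and -1.40 with auxin. With auxin it thus rose no further from mid- to late-G1. Over both conditions the ratio rose by 0.54 per doubling of time since release, from 1 to 4 h (two-sided exact permutation test over 44100 arrangements, p = 0.00494). With long genes defined as over 50 kb the slope was 0.03 (exact permutation p = 0.608), so the change rested on the genes over 100 kb. In the last 5 kb of the same genes, still inside the gene, the ratio rose as well, by 0.37 per doubling (exact permutation p = 0.00653).

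For 191 occupied genes over 150 kb, the window held a peak in all 4 early-G1 libraries for 11 genes and in all 4 late-G1 libraries for 42 genes. These 11, named after their values were seen, included March3 (164 kb), Jmjd1c (160 kb) and Mbnl1 (157 kb), with mean early-G1 coverages of 87.0%, 85.0% and 81.6%, and Runx1 (225 kb), a hematopoietic transcription factor gene, with 19.01%. Over all windows, 78 held a peak in all 4 late-G1 and in none of the 4 early-G1 libraries (2.59% of the windows with a peak in these libraries, against 1.3% of autosomal 5 kb tiles), and 55 of these 78 followed genes over 100 kb. The reverse pattern was seen for 25 windows (0.83%, against 1.46% of tiles), 2 of them behind genes over 100 kb.

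Coverage of each window was then compared between early-G1 and late-G1, averaged over control and auxin libraries, in a limma model of the quantile-normalized percent of the window covered. It was fitted together with all autosomal 5 kb tiles, and the 2305 windows with a mean coverage of at least 5% over the 14 libraries were tested. A window covered at only some stages could pass this filter through those stages. At an adjusted p under 0.05, 662 windows (28.7%) changed, close to the 30.3% of tiles, with 373 lower (16.2%) and 289 higher (12.5%) in late-G1. Without normalization the calls were 404 lower and 128 higher. The split by gene length was marked. Of the 219 tested windows behind genes over 100 kb, 102 (46.6%) rose and 15 (6.85%) fell, and without normalization 63 rose and 16 fell. Without the filter, which windows empty in early-G1 pass only through later coverage, 95 of 386 rose and 18 fell. Of the 450 behind genes of 50 to 100 kb, 49 (10.9%) rose and 111 (24.7%) fell, and of the 602 behind genes of 5 to 15 kb, 57 (9.47%) rose and 79 (13.1%) fell. The median gene length was 57.0 kb for windows that rose, 33.7 kb for those that fell and 27.9 kb for all tested.

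Of the 8 largest rises, 6 followed genes over 100 kb. The Rptor window (chr11:119760891-119765890) lies past a 297-kb gene for a subunit of the growth-control kinase complex mTORC1. It was at 0% in all 4 early-G1 libraries, at 56.2%, 91.9% and 42.6% in the mid-G1 controls, at 87.6%, 78.5% and 13.04% in mid-G1 with auxin, and at 82.2%, 82.4%, 85.0% and 62.2% in late-G1. Early-G1 and late-G1 did not overlap, and the fitted change was 78.5 percentage points (SE 11.3, limma adjusted p = 0.000126). Its promoter peak was present throughout, with a mean fold enrichment of 17.3 ± 2.21 (SD, n = 4) in early-G1 and 15.5 ± 9.27 (SD, n = 4) in late-G1.

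Rapgef6 (176 kb), which encodes a guanine nucleotide exchange factor, was likewise at 0% in early-G1 and at 71.3% and 86.7% (control) and 51.1% and 46.1% (auxin) in late-G1, a change of 65.6 points (SE 5.91, limma adjusted p = 5.8e-06). Nck2 (125 kb), an adaptor protein gene, Fut8 (237 kb), a fucosyltransferase gene, and Pip4k2a (156 kb), a lipid kinase gene, were also at 0% in each early-G1 library, and changed by 61.2 to 62.8 points. In each of these windows late-G1 lay wholly above early-G1. The windows at 0% in early-G1, that of Rptor included, passed the coverage filter only through mid- and late-G1. They were thus selected on the coverage that the test compares. Prkar2b (103 kb), a protein kinase A regulatory subunit gene, rose from 11.9% to 36.0% in early-G1 to 64.4% to 85.8% in late-G1.

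The other 2 of the 8 followed shorter genes. Arap1 (64.5 kb), the seventh in rank, rose by 61.0 points. Bnip3 (18.7 kb), a mitophagy receptor gene and the third in rank, had 5.06%, 16.3%, 14.3% and 0% in early-G1 and 76.1%, 64.1%, 72.6% and 65.5% in late-G1, a change of 63.8 points (SE 10.6, limma adjusted p = 0.000363). Its promoter fold enrichment was 17.5 ± 1.59 in early-G1 and 35.7 ± 5.62 in late-G1 (SD, n = 4 each), unlike Rptor. The next 2 kb past the Bnip3 window were covered over 95.4%, and Ppp2r2d ends 7.78 kb from the Bnip3 end in the opposite direction, so the source of this signal cannot be told apart.

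The 8 largest falls followed genes under 100 kb whose windows were covered over at least 60.5% (Ptplb) in each early-G1 library. The window of Rpa1 (50.2 kb, chr11:75106668-75111667), which encodes a subunit of the single-stranded DNA-binding complex RPA, was covered over 89.2% and 85.4% in the early-G1 controls and 70.2% and 72.6% with auxin, and over 6.54%, 32.6%, 0% and 5.42% in late-G1. The fitted change was -60.4 points (SE 7.37, limma adjusted p = 3.27e-05). The body of Rpa1 remained covered, with 94.3% ± 4.93 of its last 5 kb in early-G1 and 64.9% ± 13.8 in late-G1 (SD, n = 4 each).

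Ptplb (86.8 kb), a fatty acid elongation gene, went from 60.5% to 89.2% in early-G1 to 0% to 36.0% in late-G1. Nudcd3 (94.7 kb) went from 90.8% to 100% to 21.0% to 65.2%, and Cnst (81.1 kb) from 63.7% to 97.0% to 16.5% to 54.1%. Mettl6 (16.7 kb), a methyltransferase gene, went from 87.2% to 96.3% to 24.7% to 53.8%, with promoter fold enrichments of 29.7 ± 2.70 and 32.1 ± 10.5 (SD, n = 4 each). In all 4 the stages did not overlap. Anapc7 and Gm106 also changed, by -55.6 and -45.5 points, but their own promoter had a peak in 3 and 0 of the 14 libraries, and a gene on the opposite strand (Atp2a2 and Terf1) ends 8.61 and 10.4 kb away.

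**Figure D4:**
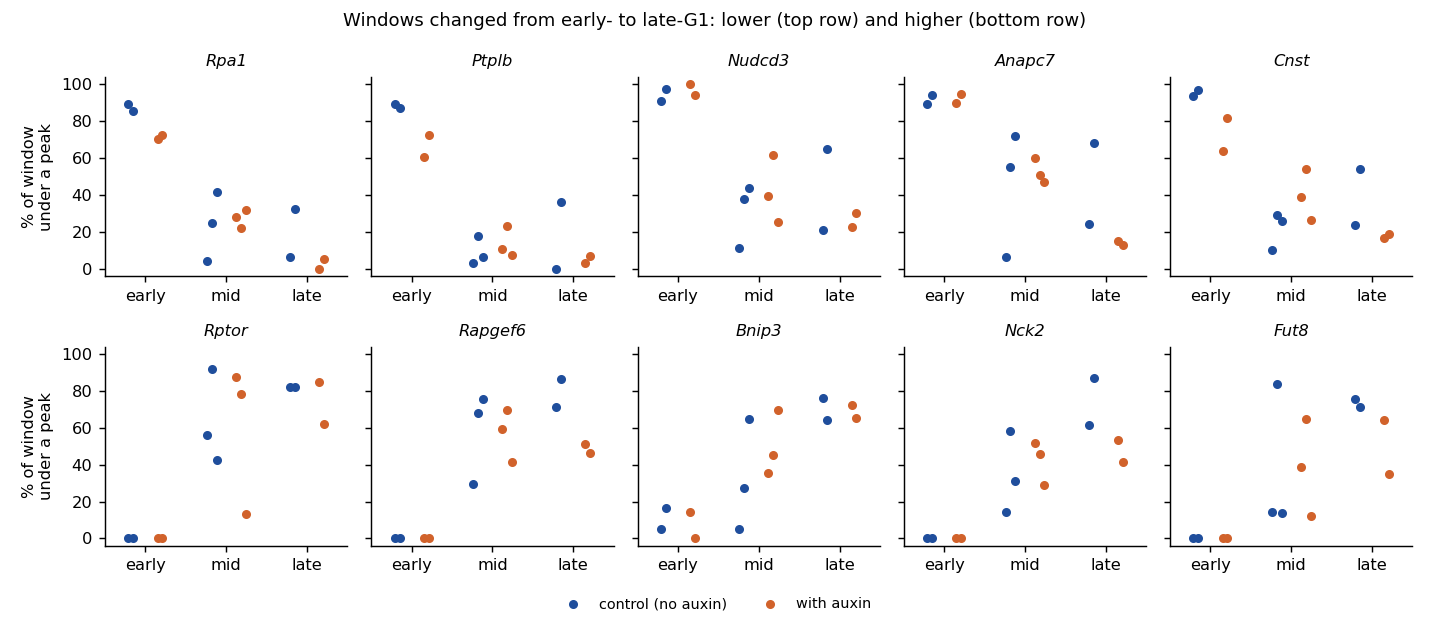
Percent of the window under a PolII peak in early-, mid- and late-G1 for the 5 windows with the largest fall (top row) and the 5 with the largest rise (bottom row) among called windows whose change had the same sign in control and in auxin libraries, with 1 point per library, control in blue and auxin in orange. Rptor, Rapgef6, Nck2 and Fut8 are at 0% in the 4 early-G1 libraries, and Rpa1 drops from between 70.2% and 89.2% to between 0% and 32.6%.

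Gene groups of biological interest were read for the same change, beside the 12.5% of all tested windows that rose and the 16.2% that fell (tiles 13.8% and 16.5%). These lists are small, and nothing particular to a list was tested. Among 10 cohesin and architectural factor genes, all tested, 3 windows rose and 4 fell from early- to late-G1. The 3 that rose follow the longest members, Stag1 (361 kb), from 9.36% ± 1.99 to 47.8% ± 10.2, the cohesin loader gene Nipbl (153 kb), from 3.46% ± 4.41 to 38.4% ± 16.8, and Pds5b (137 kb), from 14.5% ± 18.1 to 26.8% ± 10.3 (SD, n = 4 each). The limma adjusted p were 0.00148, 0.00097 and 0.0397. The Nipbl window, at a mean of 3.46% in early-G1, passed the 5% coverage filter only through later coverage. It was thus selected on the coverage that the test compares. Those that fell were the cohesin subunit gene Smc3, the loader partner gene Mau2, the regulator gene Pds5a and Ldb1. Pds5a (82.6 kb) went from 85.0% ± 15.0 to 40.01% ± 20.6 (SD, n = 4 each). Without normalization Nipbl alone remained called as a rise and Mau2, Pds5a and Ldb1 as falls, and on a log2 scale 3 rose and 2 fell. The median change of the 10 was -4.69 points, against -2.26 over all windows tested and 1.77 over the tiles.

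Of 15 hematopoietic genes with a window, 12 were tested, of which Mllt3, Ikzf1 and Etv6 rose and Ldb1 and Jak2 fell, 5 calls where 28.7% of all tested windows were called. Mllt3 (263 kb) went from 8.29% ± 7.05 to 44.4% ± 7.38, and Ikzf1 (87.9 kb), a hematopoietic transcription factor gene, from 48.3% ± 16.6 to 68.0% ± 12.8 (SD, n = 4 each). Without normalization Mllt3 alone remained a rise. The stem cell factor receptor gene Kit had 48.5% ± 6.27 and 53.6% ± 7.58 (SD, n = 4 each), which did not pass (limma adjusted p = 0.0597). On a log2 scale Kit passed (limma adjusted p = 0.0205), as did Runx1 as a rise and Myb as a fall, which gave 5 rises and 3 falls. Among 15 mitosis and cell cycle genes, 12 were tested. Cdk6 (179 kb), a G1 kinase gene, rose from 0% in the 4 early-G1 libraries to 43.0% ± 11.5 (SD, n = 4), and the kinesin gene Kif11 rose to 30.4% ± 19.5 from 19.1% ± 5.71, while the spindle checkpoint gene Mad2l1 and the APC/C subunit gene Anapc5 fell. The windows of Cdk6 and Etv6, both at 0% in early-G1, passed the coverage filter only through later coverage. Without normalization Kif11 was not called, and on a log2 scale 1 cell cycle window rose and 1 fell. Cdkn1b, a cell cycle inhibitor gene, stayed at 90.4% ± 5.17 and 88.9% ± 5.77 (SD, n = 4 each, limma adjusted p = 0.521).

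The genes of the termination machinery themselves form another list. Of 11 cleavage, polyadenylation and termination factor genes, all tested, none rose and 2 fell, where 16.2% of all tested windows fell. These were Rbbp6, from 90% ± 6.46 to 67.4% ± 9.90, and Scaf8, from 36.1% ± 23.5 to 9.16% ± 8.42 (SD, n = 4 each). The poly(A) polymerase gene Papola had 88.7% ± 9.76 and 84.8% ± 10.7, and the cleavage factor gene Cpsf6 95.0% ± 2.94 and 80.1% ± 14.8, neither of which passed. Without normalization 4 of the 11 fell, and on a log2 scale 1. Of 9 translation and ribosome biogenesis genes tested, the RNA polymerase I subunit gene Polr1a alone changed, a fall, where 28.7% of all tested windows were called, while Nop58, Pabpc1 and Eif3b did not pass. Without normalization Polr1a was not called, and Eif4g2 and Ubtf were called as falls. Of 3 chaperone genes, Hsp90aa1 fell, from 100% in the 4 early-G1 libraries to 86.6% ± 12.8 (SD, n = 4).

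The covered bases also lay closer to the gene end in late-G1 than in early- or mid-G1. Over the occupied genes, the mean distance of a covered window base from the gene end was 2127 and 2164 bp in the early-G1 controls and 2099 and 2087 bp with auxin. It was 2064 to 2166 bp in the 6 mid-G1 libraries, and 1969 and 2053 bp (control) and 1890.0 and 1894 bp (auxin) in late-G1. No late-G1 library reached the lowest early-G1 or mid-G1 value. The slope was -83.9 bp per doubling of time (two-sided exact permutation test over 44100 arrangements, p = 0.00399). At the far end of the window, 4750 to 5000 bp, coverage was 16.1% and 18.6% in the early-G1 controls and 10.5% and 14.8% in the late-G1 controls. The ratio of window to last 5 kb showed no such change (slope -0.01 on the log2 scale, exact permutation p = 0.869).

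Coverage of the termination windows as a whole did not pass a test between auxin and control, except without mid-G1 control replicate 1. An effect of CTCF loss apart from that of auxin itself was not tested. Averaged over the 3 stages, coverage with auxin differed from control by -0.20 on the log2 scale (two-sided exact permutation test over 720 arrangements, p = 0.342). The difference was -0.31 in early-G1, 0.28 in mid-G1 and -0.58 in late-G1. In early-G1 and in late-G1 the 2 auxin libraries lay below both controls (the late-G1 assignment follows the sample titles, from which the study's depth table differs), but 2 against 2 libraries allow no exact permutation p under 0.333. Mid-G1 control replicate 1 is the shallowest library and has the lowest coverage. Without it the difference was -0.34 (exact permutation p = 0.025). The ratio of window to last 5 kb differed by -0.06 (exact permutation p = 0.422).

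The long genes had low coverage with auxin in early-G1, 5.37% and 4.25% against 10.5% and 9.79%, with no overlap. This comparison was chosen after its values were seen. Over the 3 stages the log2 ratio of long to short genes was lower with auxin (-0.38, exact permutation p = 0.0694), with -0.86 in early-G1, 0.12 in mid-G1 and -0.42 in late-G1. It did not pass, whereas without mid-G1 control replicate 1 it was -0.45 (exact permutation p = 0.0222). The slope over G1 did not differ between conditions beyond its spread (difference 0.22, exact permutation p = 0.5).

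At single windows few differences between auxin and control passed the test. Of the 2305 windows tested, 24 changed (1.04%, against 0.856% of tiles), 18 lower (0.781%, tiles 0.357%) and 6 higher (0.26%, tiles 0.499%). The count was 18 without the coverage filter, and 12 of these were among the 24. It was 8 without normalization, 9 with a replicate block, 14 with a stricter peak threshold, and 9 to 75 with single libraries left out. It was 75 without late-G1 control replicate 2, 9 to 15 without one of the 4 early-G1 libraries and 13 without one of the late-G1 auxin libraries. At an unadjusted p under 0.05 there were 374 of the 2305 windows, of which 268 were lower, beside 4731 of the 36107 tiles. In simulated data, shifts of 20 points were recovered in 14% of 50 features of middle coverage, drawn from windows and tiles together. The last 5 kb of the gene moved in the same direction in 14 of the 18 and 6 of the 6. Among the 18, it moved the opposite way in 2 and held no peak in 2. Within single stages 5, 8 and 7 windows were called in early-, mid- and late-G1 (0.217%, 0.347% and 0.304%, against 0.0775%, 0.23% and 0.222% of tiles). No window was called for an auxin effect that differed between stages (0%, tiles 0.00277%). In that F test 140 of the 2305 windows had an unadjusted p under 0.05, beside 1810 of the 36107 tiles.

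The largest fall was behind Pabpc4, a cytoplasmic poly(A)-binding protein gene (window chr4:122976169-122981168). It was covered over 96.6% and 100% in the early-G1 controls and 27.2% and 34.02% with auxin, over 72.1%, 100% and 96.0% in the mid-G1 controls and 45.4%, 58.3% and 9.76% with auxin, and over 100% and 98.1% in the late-G1 controls and 34.7% and 4.56% with auxin. Each control library lay above each auxin library. The fitted change was -65.1 percentage points (SE 5.84, limma adjusted p = 8.38e-06). The last 5 kb of the gene fell with it, from 73.9% ± 20.3 to 17.6% ± 11.6 (SD, n = 7 each). The annotated start of the gene model used, 36.6 kb upstream, had no promoter peak in any library.

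The window of Tab1, a gene for an activator of the kinase TAK1 (chr15:79992132-79997131), had a peak in all 7 control libraries and in none of the 7 auxin libraries. The controls had 15.96% and 21.2% in early-G1, 14.8%, 30.8% and 37.8% in mid-G1 and 27.3% and 54.96% in late-G1, against 0% in each auxin library. The fitted change was -27.2 points (SE 3.08, limma adjusted p = 0.000119). The window passed the coverage filter only through the control libraries, so it was selected on the coverage that the test compares. The call was lost in 1 of 21 alternatives. The promoter of Tab1 still held a peak in all 14 libraries. Det1 was the other window with peaks in all 7 control and no auxin library (2 windows, 0.0644% of those with a peak, against 0.00309% of tiles), and no window showed the reverse (0%, tiles 0.0155%).

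Rfwd2 (115 kb), a ubiquitin ligase gene, had 73.7% and 64.3% in the early-G1 controls and 13.8% and 12.98% with auxin, and 57.1% and 76.0% against 16.3% and 22.8% in late-G1. In mid-G1 the groups overlapped, with 16%, 71.5% and 16.2% against 39.1%, 43.8% and 8.96%. The change of -29.6 points (SE 6.62, limma adjusted p = 0.0416) lost its call in 18 of 21 alternatives (limma adjusted p 0.00604 to 0.202). Its promoter fold enrichment was 45.6 ± 8.92 in control and 52.04 ± 7.10 with auxin (SD, n = 7 each). Rhot1, a mitochondrial GTPase gene, changed by -27.2 points, from 40.5% ± 15.4 to 11.2% ± 11.5, and Saal1 by -26.8 points, from 48.6% ± 19.5 to 18.3% ± 6.84 (SD, n = 7 each). The limma adjusted p were 0.00895 and 0.0108, and each call was lost in 3 of the 21 alternatives. A further 12 windows that fell changed by between -19.7 points (Eif2b3) and -11.2 points (A630001G21Rik).

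Of the 6 windows that rose, that of Osbpl2, a lipid-binding protein gene (chr2:179897386-179902385), stood apart. It was covered over 13.6% and 25.2% in the early-G1 controls and 79.8% and 65.0% with auxin, over 0%, 0% and 4.28% in the mid-G1 controls and 80.2%, 85.6% and 57.3% with auxin, and over 10.5% and 20.9% against 84.1% and 85.9% in late-G1. No library of either group overlapped the other, and the change was 68.0 points (SE 4.49, limma adjusted p = 2.6e-07). The last 5 kb of the gene rose with it, from 7.62% ± 7.32 to 63.5% ± 22.4, while its promoter fold enrichment was 14.1 ± 4.65 in control and 16.1 ± 2.64 with auxin (SD, n = 7 each). Coverage of the next 2 kb was 47.2% on average, and Adrm1 starts 8.80 kb downstream on the same strand.

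Srxn1, which encodes the antioxidant enzyme sulfiredoxin, rose by 33.9 points, with 6.56% to 28.6% in the 7 controls and 25.5% to 84.0% with auxin, and the groups were farthest apart in mid-G1. Max, the gene of the dimerization partner of Myc, rose by 21.1 points, from 61.1% ± 11 to 79.5% ± 10.7, and its last 5 kb from 25.5% ± 15.2 to 65.5% ± 16.9 (SD, n = 7 each). The limma adjusted p were 0.00115 for Srxn1 and 0.0158 for Max, whose call was lost in 4 of the 21 alternatives. Tmcc2, Nelf and Ypel5 rose by 28.8, 20.6 and 17.7 points, and lost their calls in 13, 15 and 5 of the 21 alternatives. In this annotation the symbol Nelf belongs to the nasal embryonic LHRH factor gene and not to the PolII pausing complex. Pabpc4, Tab1, Rfwd2 and Max, together with Mgat3, form a list of 5 loci chosen with earlier results of these data known, so its 4 calls are not independent evidence. No window of the cohesin, hematopoietic, cell cycle, chaperone or termination factor lists was called for auxin.

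**Figure D5:**
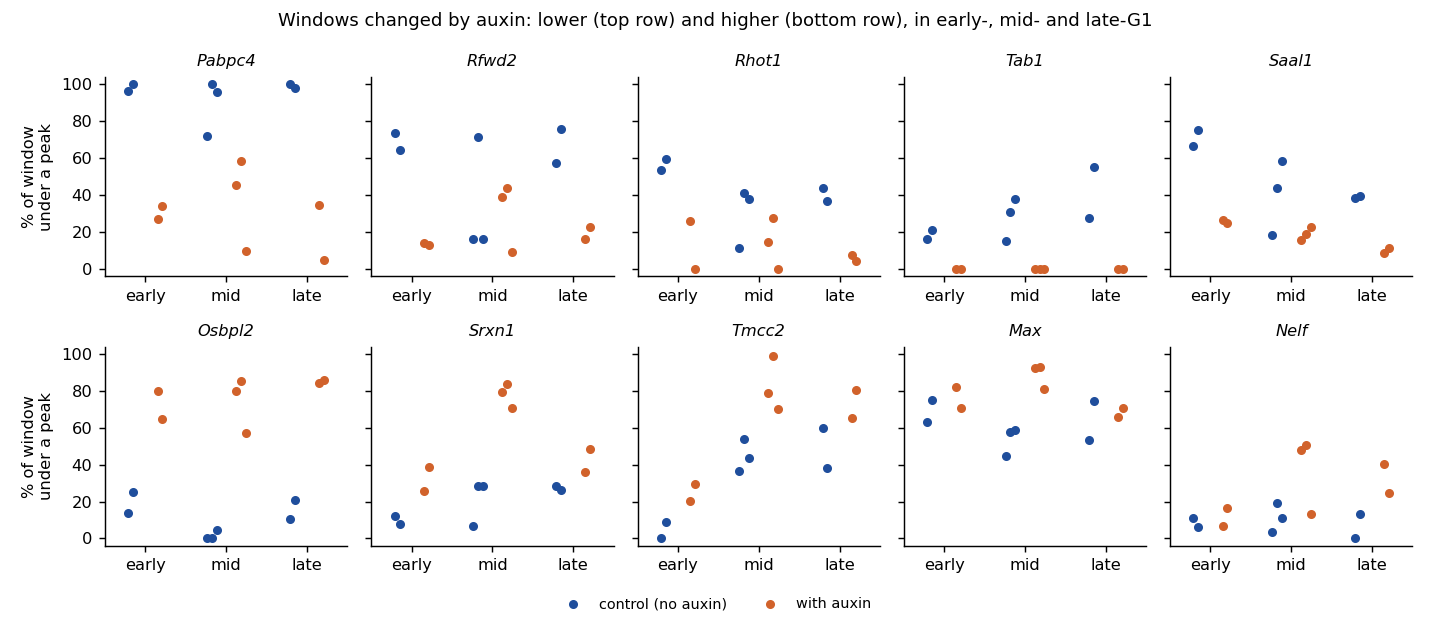
Percent of the window under a PolII peak in early-, mid- and late-G1 for the 5 windows with the largest fall with auxin (top row) and the 5 with the largest rise (bottom row), with 1 point per library, control in blue and auxin in orange. Tab1 is at 0% in the 7 auxin libraries, and Osbpl2 lies between 57.3% and 85.9% with auxin and between 0% and 25.2% in control.

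The sequence of the windows set the groups apart little. Either poly(A) hexamer was present in the last 30 bases of 66.2% of the genes with a window peak in all 14 libraries, 61.7% of those with none and 63.9% of all. It was present for 14 of the 24 windows changed by auxin (58.3%), for 63.3% of those that rose to late-G1 and for 63.5% of those that fell. A short degenerate form of the core of the CTCF motif, searched on both strands, occurred in 35.2% of all windows, in 38.1% of those tested and in 6 of the 24 changed by auxin (25%). It was present in the windows of Pabpc4, Tab1, Saal1 and Max and not in those of Osbpl2, Rfwd2, Rhot1, Srxn1, Tmcc2, Nelf and Ypel5. A match is a description of the sequence and not of CTCF binding. The median GC content of the windows was 43.9% over all and 44.1% for those changed by auxin.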

How the data were processed

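The authors aligned reads to mm9 with Bowtie2 2.2.9, removed low-quality, duplicate and blacklisted reads (SAMtools 0.1.19, bedtools 2.27.1) and called narrow peaks with MACS2 2.1.0 per library against stage-matched input. Each deposited list gives positions, summits, fold enrichment (a ratio), −log10 p-values and −log10 q-values per peak, all made by the authors. Read counts were not used here. A base without a peak may still hold signal, and shallow lists hold fewer and narrower peaks. Relative depth was recovered from fold enrichment and p-values (99.7% to 100% of peaks solved).

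Bases under peaks were counted per window, for the last 5 kb of each gene and for 5 kb tiles. Libraries were grouped by their titles. The study's depth table divides the late-G1 libraries between the conditions in another way, so late-G1 differences between control and auxin rest on the titles. Aggregates were compared by exact permutation over libraries within stages or conditions. Single windows were tested with limma 3.58.1 (R 4.3.3) on the quantile-normalized percent covered, with 6 group means and Benjamini-Hochberg adjustment over windows and tiles. On simulated data for the auxin comparison with 38412 features, 14%, 70% and 92% of shifts of 20, 30 and 40 points were recovered, and none of 10 points. Each share rests on 50 features of middle coverage, drawn from windows and tiles together, and does not describe windows with little coverage. Other steps used Python 3.11.15, numpy 2.4.6 and scipy 1.17.1.

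The windows, gene lists and tests were chosen with earlier results of these data known. By rule the text names the 10 most covered windows, the 8 strongest in prometaphase, the 6 largest auxin changes and the 8 largest stage changes per direction, list members by coverage, and called members. Of these, 2 windows are not reported here. Alternatives were another peak threshold (−log10 q of at least 5), a window from 1 to 5 kb, 5 kb isolation, joined peaks, other scalings and filters, a depth regression, a replicate block and leaving out each library. The deposited score, which the authors' peak caller wrote beside each peak, and the 4 inputs were not used.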

Additional observations from a re-analysis of the deposited data

How the results depend on the processing

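Most comparisons kept their direction and their side of the threshold. The slope of the ratio of window to last 5 kb, which did not pass in any setting, turned from -0.01 to 0.0051 with peaks joined within 1 kb and to 0.016 with a regression on log2 depth, and ranged from -0.042 to 0.012 with single libraries left out. The slope of the long to short gene ratio was 0.035 with genes over 50 kb as long, and 0.43 to 0.59 with single libraries left out. The auxin difference in window coverage ranged from -0.34 to -0.13 with single libraries left out and passed only without mid-G1 control replicate 1. The auxin difference in the long to short gene ratio, whose alternatives were chosen after seeing the data, was -0.28 with a regression on log2 depth (exact permutation p = 0.0472) and -0.45 to -0.32 with single libraries left out. The number of windows changed by auxin, 24, was 8 without normalization and 14 with peaks of −log10 q of at least 5. It was 9 to 75 with single libraries left out, the highest without late-G1 control replicate 2 and the lowest without early-G1 auxin replicate 2. Windows whose auxin effect differed between stages numbered 1 without normalization, 2 on a log2 scale, 7 without the filter on covered share, and 0 to 1 with single libraries left out. The number changed from early- to late-G1 was 453 to 739. No named window turned direction, and the 16 stage changes that the rule names kept their calls in each of their 20 alternatives.

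The deviations of same-numbered control and auxin libraries had correlations of 0.08 in early-G1, -0.04, 0.36 and 0.22 in mid-G1 and -0.04 in late-G1. With 2 libraries per group the deviations mirror each other, so early- and late-G1 cannot show whether a number marks a shared batch. In mid-G1 the value of replicate 2 was the highest of all pairs, so a shared batch was not excluded. With the replicate block, 9 windows were called for auxin, the difference in window coverage was -0.16 (exact permutation p = 0.5), that in the ratio to the last 5 kb -0.04, and that in the long to short gene ratio -0.38.

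Peak lists carry no read counts, so a window without a peak is one in which no peak was detected at that depth. With 2 or 3 libraries per group, single stages could not reach an exact permutation p under 0.05, and shifts of 20 points were recovered in 14% of simulated features of middle coverage.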
